A study of Homo sapiens with 2 samples.

Results

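The mitochondrial protein import machinery was described here through 35 of the 25556 genes in the deposited expression table. The members were taken by symbol alone: the genes of the TIMM and TOMM families, without their pseudogenes, and GRPEL1, GRPEL2, PAM16, PMPCA, PMPCB, HSCB, SAMM50, CHCHD4, MTX1 and MTX2. Huh-7, a line grown from a human hepatocellular carcinoma and here wild-type, was lysed, and 2 RNA libraries were made: an immunoprecipitate (IP) from 90% of the lysate and an input from 10%. RNA immunoprecipitation sequencing (RIP-seq) compares the RNA that comes down with a protein to that of the lysate it came from. The study's design names SRSF7, a serine/arginine-rich splicing factor, as the precipitated protein, with SPSF7 written as the treatment of the IP. The protocol given for the samples instead names YTHDF2, a reader of m6A, after poly(A) selection. The files do not settle which holds, so the libraries are called IP and input. Each group is 1 library of 1 cell line, so no difference below has a replicate check and no test was run.

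Nearly all mitochondrial proteins are encoded in the nucleus, made in the cytosol and imported. They enter through the TOM complex of the outer membrane. From there, proteins with a cleavable presequence pass the TIM23 complex of the inner membrane, pulled in by a motor on the matrix side. Carrier proteins are escorted by the small TIM chaperones to the TIM22 complex, barrel-shaped outer membrane proteins are inserted by the SAM complex, and small cysteine-rich proteins are trapped between the membranes by a disulfide relay. Hepatocytes are rich in mitochondria, and hepatoma lines express this machinery as a housekeeping set.

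Reads assigned to genes numbered 5897293 in the IP and 2782045 in the input. Values are RPKM (reads per kilobase of exon, scaled to the library's assigned reads), from which whole reads were recovered. Hepatocyte markers stood at 26.4 to 2814 RPKM for all 8 genes in both libraries, and the 4 fibroblast markers in the table at 1.23 RPKM or less. The 3 endothelial markers summed to 2.70 RPKM in the IP and 3.99 RPKM in the input, where CDH5 was at 0. The 5 immune markers summed to 87.9 and 157 RPKM, most of it LYZ, and the 4 erythroid ones to 694 and 1052 RPKM, most of it HBB. The part of these other cells' markers in the results was not tested. The intervals given are 95% intervals of counting error. Of the genes with 1 to 10 reads, 78.5% had an even count in the IP and 78.1% in the input, a pattern that arises when mates are counted singly, and intervals from halved reads are therefore given where they differ in outcome. The intervals also take the scaling between the libraries as deposited. Scaling to reads in protein-coding genes multiplies every ratio by 0.763, and scaling both libraries to the same RPKM sum multiplies every ratio by 2.39. Directions are therefore given mainly against the middle of all genes.

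In their ratio of IP to input, most transcripts of the import machinery sat below the middle of all genes. Of the 35 members, 33 passed the filter of a mean of at least 1 RPKM, and their median log2((IP + 1)/(input + 1)) was -0.33, against 0.14 over the 14057 genes that passed it. Below the median of all genes lay 26 members, and 7 lay above it. The quartiles of the members were -0.57 and 0.08, and those of all genes -0.35 and 0.60. The median of the members changed sign, to 0.91, with both libraries scaled to the same RPKM sum, where that of all genes was 1.14; it stayed below that of all genes under each of the scalings tried. Together the 33 genes took 0.117% of IP reads (exact binomial interval 0.114 to 0.119%) and 0.138% of input reads (0.134 to 0.142%).

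On the deposited scale 5 members were at least 2-fold away from their input level in log2((IP + 1)/(input + 1)). At least 2-fold higher in the IP was 1 member, TIMM29, where 11.3% of all genes were; at least 2-fold lower were 4 members, TIMM8B, GRPEL2, TIMM17A and TOMM5, where 8.25% of all genes were. In either direction this comes to 5 of 33 members, and 19.6% of all genes. Of the 9853 tested protein-coding genes, 8.06% were at least 2-fold higher and 3.91% at least 2-fold lower. Both shares of members come from small numbers, and neither was tested against the background. The lower count depends on the 1 added to each value. With 0.1 added instead, TIMM9 and MTX2 joined the lower members, making 6, where 12.2% of all genes were. The counting interval of the ratio lay wholly below 1 for 13 members (18.6% of all genes) and wholly above 1 for 5 (31.4% of all genes), and it included 1 for the other 15. With reads halved, as if both mates had been counted, 10 members lay wholly below 1 and 4 wholly above it. SAMM50, TIMM10B, TIMM21 and TIMM50 were those whose interval then included 1. These counts move with the scaling. With both libraries scaled to the same RPKM sum, 13 members lay 2-fold or more above the input and 0 below it, where 57.4% and 3.03% of all genes did. With scaling to reads in protein-coding genes, the interval lay wholly above 1 for 2 members and wholly below 1 for 22. That scaling multiplies the ratio of every gene, member or not, by 0.763. The shares of all genes with such intervals were not computed under it or with reads halved, so these counts have no background.

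**Figure D1:**
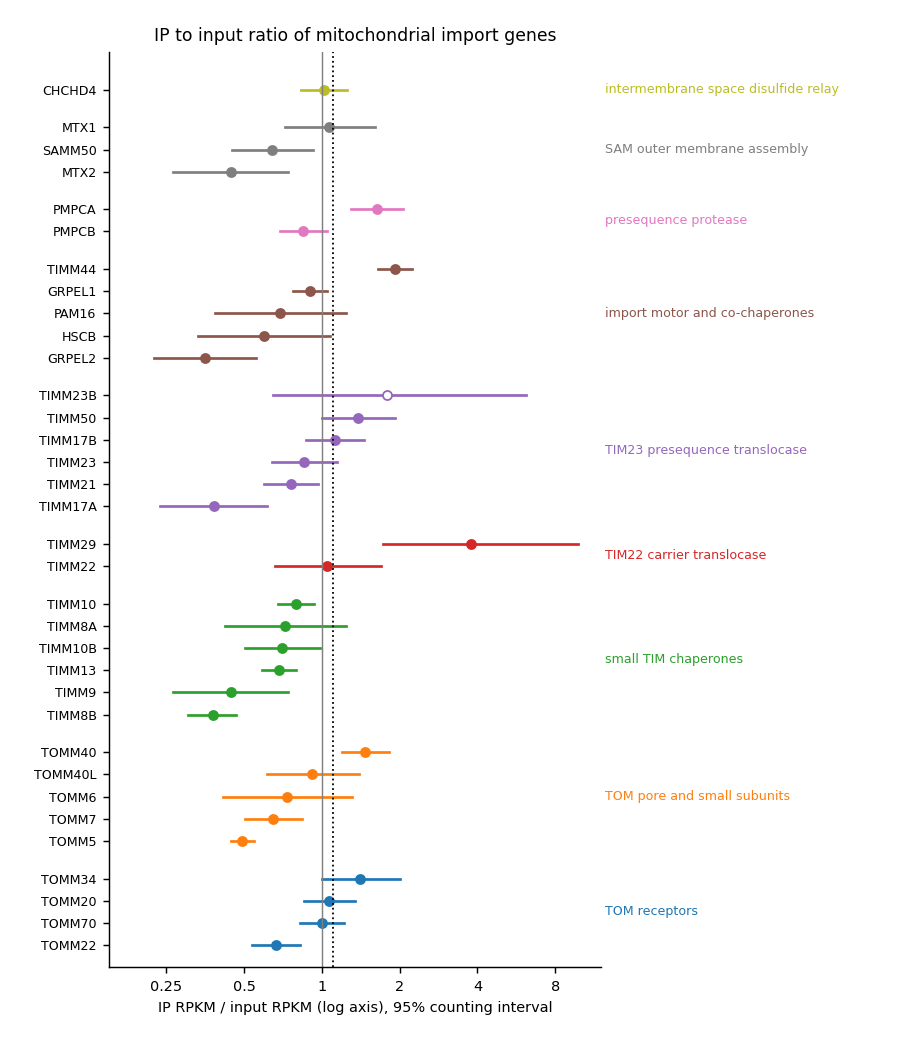
Ratio of IP to input RPKM (log axis) for the 34 members with reads in both libraries, grouped by role, with 95% counting intervals as bars; the solid line marks 1, the dotted line the median ratio of 1.11 over the 13674 tested genes with input reads, and the open circle a gene under the filter. On the deposited scale the 6 small TIM chaperones all lie to the left of both lines, while TIMM29, TIMM44, PMPCA and TOMM40 lie to the right.

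Among the receptors of the TOM complex and TOMM34, which was grouped with them, TOMM20 and TOMM70 stood close to their input level on the deposited scale. TOMM22 lay below it, and TOMM34 was at a higher value with an interval that includes 1. TOMM20, which binds presequences, was at 12.7 RPKM in the IP and 11.9 RPKM in the input, a ratio of 1.06 (0.850 to 1.34). TOMM70, the receptor for carrier precursors that arrive with cytosolic chaperones, was at 11.2 RPKM in both, a ratio of 0.997 (0.823 to 1.21). TOMM22, the central receptor that also organises the complex, was the lowest of this group at 16.8 and 25.4 RPKM, a ratio of 0.662 (0.536 to 0.819). TOMM34, a cytosolic co-chaperone of import, was the highest at 11.8 and 8.38 RPKM, a ratio of 1.405 with an interval of 0.999 to 2.01. The interval of TOMM22 lies below those of TOMM20, TOMM70 and TOMM34, but with reads halved it runs from 0.489 to 0.898 and overlaps them all. Against the median of all genes 3 of the 4 lay lower as deposited and 1 of 4 with both libraries scaled to the same RPKM sum. TOMM20L, a relative of TOMM20, had 0 IP and 3 input reads, too few to compare.

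The channel of the TOM complex and its small subunits differed from each other. TOMM40, the barrel that forms the channel, was at 17.3 RPKM in the IP and 11.7 RPKM in the input, 1.47 times its input level (1.19 to 1.83). The small subunits that stabilise the channel had ratios under 1, with intervals wholly below 1 for TOMM5 and TOMM7. TOMM5 had 773 IP and 741 input reads, 36.3 and 73.9 RPKM. Its ratio was 0.492 (0.444 to 0.545), with a narrow counting interval. TOMM7 was at 14.6 and 22.6 RPKM, a ratio of 0.648 (0.503 to 0.836). TOMM6 was at 9.05 and 12.4 RPKM, and with 34 and 22 reads its ratio of 0.729 (0.414 to 1.31) cannot be placed on either side of 1. The channel and its smallest subunits thus had intervals that do not overlap for TOMM40 against TOMM5 and TOMM7, whichever scaling is used. TOMM40L, the second channel isoform, was at 3.81 and 4.15 RPKM, a ratio of 0.919 (0.613 to 1.40). TOMM5 shares 520 and 340 of its 3606 exon bases with AL138752.2 and AL513165.2, clone-named genes on its strand. AL138752.2 had 537 IP and 523 input reads, and AL513165.2 had 412 and 416. All 637 bases of TOMM6 lie in another listed gene. Reads of TOMM5 and TOMM6 may therefore be shared, and how many belong to each gene was not tested. The median of the channel group minus that of all genes was -0.56 (log2), and -0.18 without the members that share exon bases.

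All 6 small TIM chaperones lay below the median of all genes, and they did so under each pseudocount and scaling tried. These proteins form hexamers in the intermembrane space that shield hydrophobic precursors. Their levels ran from TIMM10, the most abundant member, to TIMM8A, the least abundant of those tested. TIMM10 was at 92.4 RPKM in the IP and 116 RPKM in the input, a ratio of 0.795 (0.678 to 0.933). Its partner in the hexamer, TIMM9, was at 3.83 and 8.63 RPKM, a ratio of 0.444 (0.265 to 0.742) from 32 and 34 reads. TIMM13 was at 42.4 and 62.2 RPKM, a ratio of 0.681 (0.585 to 0.795). TIMM8B was the lowest tested member in the log2 ratio, at -1.37. It stood at 23.1 RPKM in the IP and 61.3 RPKM in the input, 2.65-fold lower on the deposited scale (2.14 to 3.29). Its paralogue TIMM8A, mutated in the deafness-dystonia syndrome, was at 2.09 and 2.92 RPKM, a ratio of 0.717 (0.422 to 1.24). TIMM10B, which sits on the TIM22 complex, was at 5.22 and 7.46 RPKM, a ratio of 0.700 (0.502 to 0.982). TIMM8B shares 351 of its 1166 exon bases with NKAPD1 on the opposite strand, and it is not stated whether strand was used in counting. The group median minus that of all genes was -0.63 (log2), and -0.53 with both libraries scaled to the same RPKM sum.

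The TIM22 complex inserts carriers into the inner membrane, and its members included the one that was highest of all. TIMM29, a metazoan subunit that links TIM22 to the TOM complex, was at 5.32 RPKM in the IP and 1.41 RPKM in the input. That is a ratio of 3.77, from 56 IP and only 7 input reads, so the interval runs from 1.72 to 9.82 and, with reads halved, from 1.16 to 12.96. TIMM22, the channel itself, was at 3.30 and 3.16 RPKM, a ratio of 1.04 (0.658 to 1.70). The interval of TIMM29 lies just above that of TIMM22, and with reads halved they overlap.

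On the deposited scale, subunits of the TIM23 complex spread from well below to slightly above their input level. TIMM17A, a stress-regulated core subunit, was at 1.65 RPKM in the IP and 4.31 RPKM in the input, a ratio of 0.382 (0.236 to 0.615). TIMM17B, the other version of that subunit, was at 13.5 and 12.1 RPKM, a ratio of 1.12 (0.866 to 1.46). TIMM23, the channel-forming subunit, was at 20.1 and 23.6 RPKM, a ratio of 0.853 (0.642 to 1.14). TIMM21, which connects the complex with TOM and with respiratory chain assembly, was at 5.91 and 7.82 RPKM, a ratio of 0.756 (0.594 to 0.964). TIMM50, the receptor that takes over presequences from TOM, was at 3.65 and 2.65 RPKM, a ratio of 1.38 (1.004 to 1.92). Scaled to reads in protein-coding genes, its interval included 1. The interval of TIMM17A overlaps that of TIMM21 but lies below those of TIMM23, TIMM17B and TIMM50. With reads halved it runs up to 0.760 and overlaps that of TIMM23, which then starts at 0.564. TIMM23B, a near-identical copy of TIMM23, had 19 IP and 5 input reads and did not pass the filter. Reads of these copies can be split or lost in counting, so both values are uncertain.

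The import motor on the matrix side held the best supported high member. TIMM44, the anchor that ties the motor to the TIM23 channel, had 861 IP and 212 input reads, the most IP reads of all members. It was at 31.5 and 16.4 RPKM, a ratio of 1.92 (1.65 to 2.24). Its log2 ratio of 0.90 stood above those of 85.8% of all genes. The nucleotide exchange factors that reset the motor were lower. GRPEL1 was at 20.1 and 22.3 RPKM, a ratio of 0.899 (0.770 to 1.05), and GRPEL2 at 1.38 and 3.90 RPKM, a ratio of 0.354 (0.223 to 0.557). PAM16, which restrains the J-protein of the motor, had 32 and 22 reads and a ratio of 0.686 (0.387 to 1.24). HSCB, a J-protein co-chaperone that serves iron-sulfur cluster transfer, had 29 and 23 reads and a ratio of 0.595 (0.332 to 1.08). The median of this group minus that of all genes was -0.54 (log2), but 0.19 when a mean of 5 RPKM was required, which only TIMM44 and GRPEL1 of this group reach.

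The presequence protease, the SAM complex and the disulfide relay made up the rest. PMPCA, the noncatalytic subunit of the matrix protease that removes presequences, was at 8.82 RPKM in the IP and 5.40 RPKM in the input, a ratio of 1.63 (1.30 to 2.06). PMPCB, its catalytic partner, was at 7.03 and 8.31 RPKM, a ratio of 0.846 (0.688 to 1.04). The subunits of this dimer thus had intervals that do not overlap. Of the SAM complex, SAMM50, the barrel that inserts other barrels, was at 2.01 and 3.14 RPKM, a ratio of 0.640 (0.447 to 0.921). Its partner MTX1 was at 4.45 and 4.17 RPKM, a ratio of 1.07 (0.721 to 1.61). MTX2, the other partner, was at 3.16 and 7.12 RPKM, a ratio of 0.444 (0.265 to 0.742) from 32 and 34 reads. CHCHD4, the oxidoreductase of the disulfide relay, was at 29.2 and 28.6 RPKM, a ratio of 1.02 (0.833 to 1.25), while the small TIM chaperones, which it folds, had ratios of 0.444 to 0.795 apart from TIMM8B at 0.377. CHCHD4 lay below the median of all genes as deposited and above it with the same RPKM sum.

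**Figure D2:**
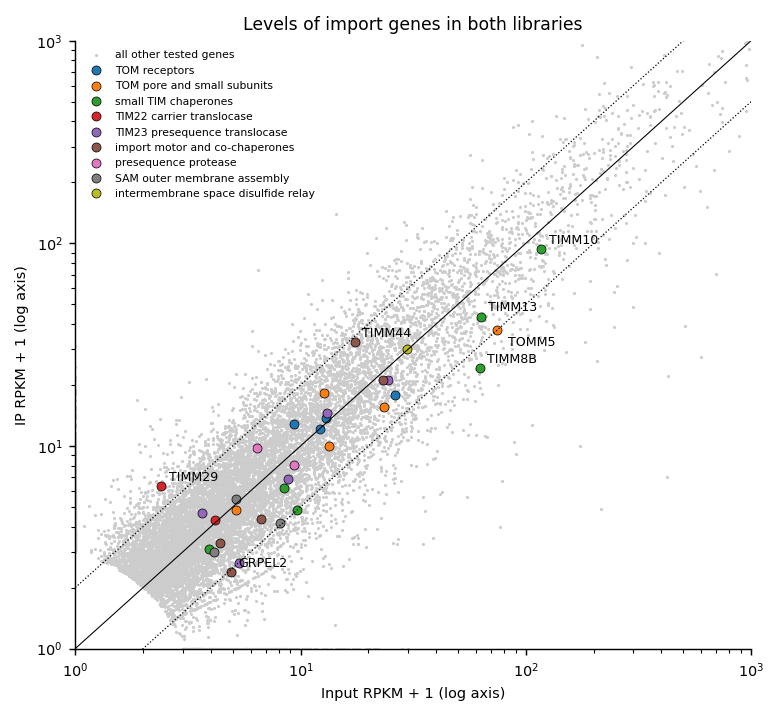
RPKM + 1 in the input (horizontal, log axis) and the IP (vertical, log axis) for the 33 tested members, coloured by role, over all other tested genes in grey; the solid line marks equal values, the dotted lines 2-fold differences, and 41 genes lie outside the axes. TIMM10, TIMM13, TOMM5 and TIMM8B, the most abundant members, lie below the solid line, and TIMM44 near the upper dotted line.

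Several proteins of the machinery come as paralogues or as subunits of 1 dimer, and 8 such pairs were compared by the ratio of their ratios, in which the scaling between the libraries cancels. The ratio of TIMM17B was 2.93 times that of TIMM17A (1.69 to 5.09). That of GRPEL1 was 2.54 times that of GRPEL2 (1.57 to 4.14), and that of PMPCA 1.93 times that of PMPCB (1.41 to 2.64). In these 3 pairs the interval also excluded 1 with reads halved, where it ran for example from 0.153 to 0.758 for TIMM17A over TIMM17B. However, TIMM17B and PMPCB share exon bases with abundant opposite-strand genes, PQBP1 and DNAJC2. Of the other genes in the 8 pairs, GRPEL2, TIMM8B, TOMM40L and MTX1 also share exon bases with opposite-strand genes, up to 30.1% of the length in TIMM8B. TIMM10B and TIMM23B share exon bases with genes on their own strand. What reads of all these neighbours add to the pair ratios was not tested. MTX1 was 2.40 times MTX2 (1.24 to 4.66) and TIMM8A 1.90 times TIMM8B (1.07 to 3.43), and both intervals included 1 with reads halved. No difference beyond counting error was found between TOMM40 and TOMM40L, at 1.60 times (0.997 to 2.54), between TIMM10 and TIMM10B, at 1.14 times (0.779 to 1.65), or between TIMM23B and TIMM23, at 2.10 times (0.720 to 7.47). TIMM17A and GRPEL2, the lower genes of their pairs, had 76 and 84 reads in both libraries together.

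Shorter members tended to lie lower, as shorter genes did in general. Across the 33 members Spearman's rho between merged exon length and log2 ratio was 0.34, and 0.40 over the 23 members with at least 100 reads. Over all tested genes it was 0.16. These are correlations across genes of the same libraries, given as a description. All genes of up to 1000 bases had a median of -0.06, those of 1000 to 2000 bases 0.01, those of 2000 to 3000 bases 0.07, those of 3000 to 5000 bases 0.11 and longer ones 0.26. The 10 members of 1000 to 2000 bases had a median of -0.57, from TIMM8B to TIMM29, and 7 of them lay below the median of all genes in that bin. In the bin of 3000 to 5000 bases 9 of 11 members did, and in that of over 5000 bases 4 of 6. The median of the members was below that of all genes in each of the 5 bins, and TIMM17A, TOMM5 and GRPEL2 were among the lowest. The length in the table merges all exons of a gene and can be longer than any of its transcripts.

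**Figure D3:**
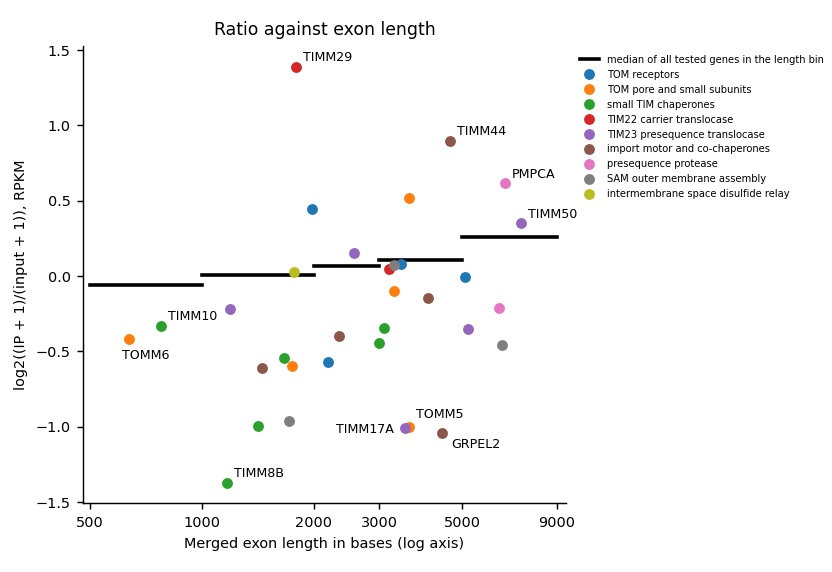
Log2((IP + 1)/(input + 1)) of RPKM against merged exon length (log axis, bases) for the 33 tested members, coloured by role; black bars give the median of all tested genes in each length bin. TIMM17A, TOMM5 and GRPEL2 lie near -1 at over 3000 bases, and TIMM29 at 1.39 is far above the bar of its bin.

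Chromosome 19 held 5 tested members, and 4 of them were among the 6 with the highest log2 ratio. This grouping was made after the values were seen. In falling order they were TIMM29 (chr19:10928811-10933535, plus strand), TIMM44 (chr19:7926718-7943667, minus strand), TOMM40 (chr19:44890569-44903689, plus strand), TIMM50 (chr19:39480412-39493785, plus strand) and, far lower, TIMM13 (chr19:2425625-2427586, minus strand). Their median was 0.52, against -0.35 for the 28 members elsewhere, of which 3 lay above the median of all genes. The 953 tested genes of chromosome 19 had a median of 0.43, the highest of the chromosomes that hold a tested member. TIMM29, TIMM44 and TOMM40 lay above that median, and TIMM50 at 0.35 and TIMM13 at -0.54 below it. The deposited coordinates name no build; the spans of all 35 members overlap those of the same genes in GRCh38.p14, and 14 have the same start and end.

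Regions that the authors called as enriched in the IP were found in 5 members, 6 of the 7643 deposited peaks. Of all tested genes 21.5% carried a peak, so 5 of 33 is not above the background. The fold and p-value of a peak are the authors' own values, from 1 IP and 1 input. TIMM44 carried both of the peaks with the smallest p among the members. In the authors' deposited table the first, at chr19:7935101-7935151, had a fold of 2.25 and p = 2.89e-05, and the second, at chr19:7933943-7934103, a fold of 2.09 and p = 1.03e-07. Along the merged exons they lie at bases 660 to 710 and 885 to 960 from the 5′ end, in merged exons 4 and 5 to 6 of 12. TOMM40 carried a peak at chr19:44893835-44893989, over bases 775 to 850 of 3610, with a fold of 2.81 and p = 0.0153 in the authors' deposited table.

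The other 3 peaks had larger p-values than those of TIMM44. In the authors' deposited table PMPCA carried a peak of 51 bases with a fold of 2.63 and p = 0.0354. The authors' deposited table gives TIMM22 a peak from base 75 of its merged exons, with a fold of 3.12 and p = 0.0316. The authors' deposited table gives PMPCB a peak at bases 3883 to 3983 of 6273, with a fold of 2.29 and p = 0.0151, while the gene as a whole was at 0.846 times its input level. The authors' false discovery rate was at most 0.05 for 4 of the 6 peaks, in TIMM44, TOMM40 and PMPCB, and 14.6% of all tested genes have such a peak. Of the genes with a peak, 3 lay above the median of all genes (TIMM44, TOMM40 and PMPCA) and 2 below it (TIMM22 and PMPCB). TIMM29, the highest member, carried 0 peaks. Peaks inside the spans of PMPCB and TIMM23B on the opposite strand lay in exons of DNAJC2 and PARG and were not counted for the members.

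**Figure D4:**
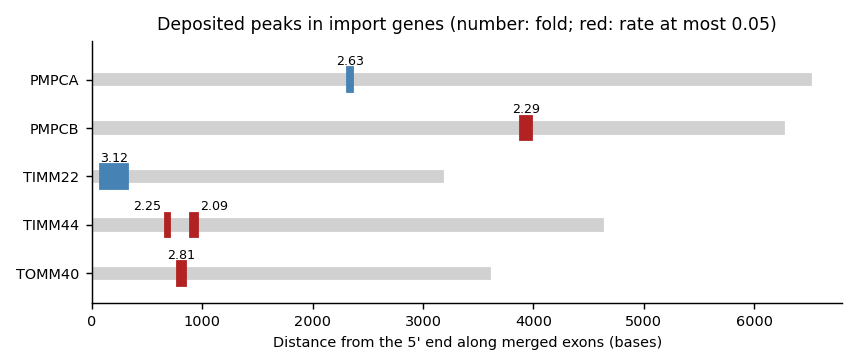
Deposited peaks along the merged exons (bases from the 5′ end) of the 5 members that carry one; grey bars give the whole exon length, boxes the exonic part of each peak with the authors' fold, red where the authors' false discovery rate is at most 0.05 and blue above it. In TIMM22, TIMM44 and TOMM40 the peaks are centred at 6.29% to 22.5% of the exon length from the 5′ end, and those of PMPCA and PMPCB at 35.9% and 62.7%.

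Other nuclear-encoded mitochondrial genes were placed much as the import genes were. For the 78 genes of mitochondrial ribosomal proteins the median was -0.42, with 80.8% below the median of all genes. The 46 tested complex I NDUF genes had a median of -0.49 (78.3% below), and the 44 tested genes of respiratory complexes II to V a median of -0.51 (86.4% below). The import genes, with -0.33 and 78.8% below, had the highest of these medians, and the difference was not tested. At least 2-fold lower were 12 genes (15.4%), 10 genes (21.7%) and 9 genes (20.5%) of these other groups in that order. Beside them stood 4 import genes (12.1%), 8.25% of all genes and 3.91% of tested protein-coding genes. Their exons were shorter, with median lengths of 2544, 2388.5 and 2316 bases against 3082 bases for the import genes.

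**Figure D5:**
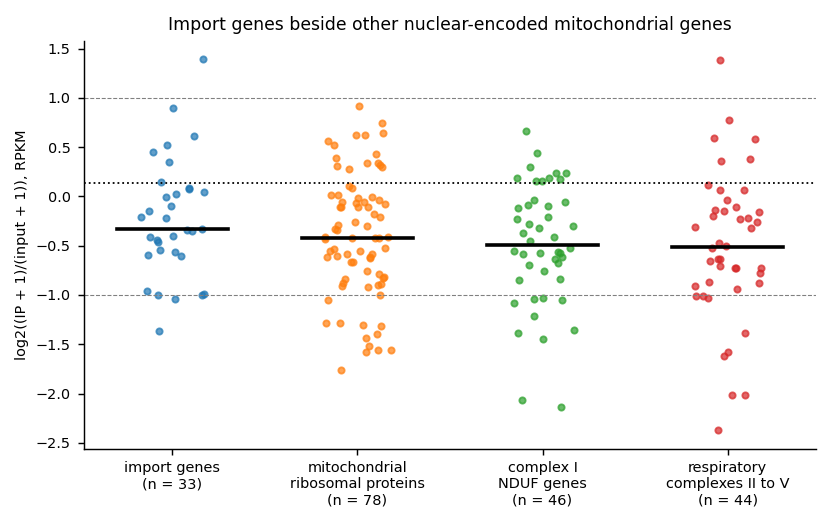
Log2((IP + 1)/(input + 1)) of RPKM for each tested gene of 4 groups of nuclear-encoded mitochondrial genes; black bars give group medians, the dotted line the median of all tested genes at 0.14 and the dashed lines 2-fold. On the deposited scale all 4 medians lie below the dotted line, at -0.33, -0.42, -0.49 and -0.51, and the groups overlap over most of their range.

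Genes that work with the import machinery but are outside the symbol rule were taken from a list of 40, of which 39 were in the table and 35 passed the filter. Their median was -0.06, with 21 below and 14 above the median of all genes. On the log2(RPKM + 1) scale 1 of the 35 was at least 2-fold higher, where 11.3% of all genes were. At least 2-fold lower were 2 of the 35, where 8.25% of all genes were. In log2((IP + 1)/(input + 1)) LONP1, the main protease of the matrix, was the highest, at 44.9 RPKM in the IP and 17.1 RPKM in the input, a ratio of 2.63 (2.29 to 3.03) with 4 peaks. GFER, the oxidase that recharges CHCHD4, followed at 2.15 times (1.57 to 3.01), and TRAP1, the HSP90 of mitochondria, at 1.82 times (1.46 to 2.30). SPG7, a subunit of an inner membrane protease with a mean of only 1.68 RPKM, was at 1.89 times (1.54 to 2.33) with 3 peaks. A peak lay in 8 of the 35 tested related genes and in 21.5% of all tested genes. Among related genes that averaged 5 RPKM or more, the lowest by that log2 measure were VDAC3, an outer membrane channel, at 0.424 times (0.331 to 0.544), HSPE1, the co-chaperonin of HSPD1, at 0.505 times (0.469 to 0.544), and TIMMDC1, an assembly factor of complex I related to the TIM family, at 0.502 times (0.415 to 0.608). MICOS10, a subunit of the complex that shapes cristae, came next by that measure, with a ratio of 0.482 (0.379 to 0.613). The genes at least 2-fold lower were VDAC3 and DNAJC19, a J-protein of the motor, at 0.403 times (0.267 to 0.606) and a mean of 3.87 RPKM. HSPA9, the HSP70 that drives the import motor, was added to these after its values were seen. It was at 84.0 and 67.9 RPKM, a ratio of 1.24 (1.17 to 1.31) with 2 peaks. HSPA9 and TIMM44, the anchor of the motor, were thus both above 1 on the deposited scale, as GRPEL1 and GRPEL2 were not. The side of 1 on which each gene falls depends on the scaling. The order of HSPA9 and TIMM44 above GRPEL1 and GRPEL2 does not, since a scaling multiplies every ratio alike. With both libraries scaled to protein-coding reads the ratio of HSPA9 falls below 1. With the same RPKM sum GRPEL1 was itself among the members at least 2-fold higher.

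Promoter sequence, which the rule did not use, was searched for known motifs. Nuclear respiratory factor 1 (NRF1) and the ETS factor GABP are known regulators of nuclear-encoded mitochondrial genes, and their motifs, with that of YY1, were looked for on both strands in the 250 bases before the RefSeq start (GRCh38.p14), which matched 32 of the 35 members and 30 of the tested ones. The NRF1 core GCGCANGCG was found in 9 of these 30 promoters, and in 14.1% of the 8421 promoters of tested genes. The ETS motif CCGGAAGT was found in 7 of 30, and in 8.06% of all. The YY1 motif AAGATGGCG was found in 1, that of TOMM40L, and in 1.10% of all. At least 1 of the 3 motifs stood in 15 of 30 promoters and in 21.9% of all, and in none of the other 15. The shares were not tested against each other. The motifs do not overlap in the sequences below. The promoters with an NRF1 core belonged to members at both ends of the ranking, from TIMM9 and TOMM7 to TOMM40 and TIMM29, and those with an ETS motif likewise ran from GRPEL2 to TIMM29. TOMM20 and TIMM29 carried both, and their sequences up to the start are shown for this reason, 5′ to 3′ with both motifs in capitals. The stretch of TOMM20 is chr1:235128838-235129087 on the minus strand, and the stretch of TIMM29 is the longest part of its window outside exons of the deposited annotation, chr19:10928682-10928810 on the plus strand.
TOMM20: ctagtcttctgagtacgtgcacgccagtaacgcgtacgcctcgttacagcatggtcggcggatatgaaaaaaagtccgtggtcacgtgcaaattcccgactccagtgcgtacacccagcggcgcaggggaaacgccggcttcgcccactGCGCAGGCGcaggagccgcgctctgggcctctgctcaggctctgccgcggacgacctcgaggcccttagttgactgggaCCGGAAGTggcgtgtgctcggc
TIMM29: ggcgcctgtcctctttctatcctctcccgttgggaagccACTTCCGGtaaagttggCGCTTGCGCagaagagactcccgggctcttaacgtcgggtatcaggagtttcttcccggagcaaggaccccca
In TOMM20 the NRF1 core stands upstream of the ETS motif, and in TIMM29 the order is the reverse, with both motifs on the other strand. A match is a description of these letters and does not show that a factor binds there, and promoter sequence and the IP ratio are separate readouts.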

How the data were processed

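Huh-7 cells gave 1 IP and 1 input library, grouped by their titles. The submitters' processing notes name Trimmomatic and STAR 2.5.3a. Counter, annotation, build, peak caller and any use of the 8-base molecular tags: not given in the sources used. The gene values are RPKM, deposited by the authors without a unit in the header: multiplied by gene length, both columns give 1 total, and all values were whole multiples of 1 read (within 0.01 of a read), which gave the reads. Each deposited peak carries the authors' fold (a ratio of IP to input), p-value and false discovery rate, per the file headers. The authors' deposited score equals -log2 of that rate and was not used. There were 0 columns of other samples.

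The log2 ratio uses a pseudocount of 1 and understates the change of low genes. Ratios of single genes use RPKM alone, with exact (Clopper-Pearson based) intervals of the read counts. Genes with a mean below 1 RPKM were left out. Percent ranks and medians were taken over the genes that passed. Peaks were assigned by exonic overlap on their strand (at least 1 base). Biotypes came from RefSeq (19793 symbols matched). Of the members, 7 share exon bases with a gene on the same strand and 14 with one on the opposite strand. Every member was named; values were given in full for the highest and lowest of each role, those past 2-fold, those with a peak and the 3 most abundant. Of the related list, the 3 highest and the 3 lowest in log2 ratio among genes averaging 5 RPKM or more were named by rule; HSPA9, DNAJC19, MICOS10 and SPG7 were added after their values were seen. The members, roles and lists were chosen with earlier results of these data known. Intervals were tested on simulated independent reads only, so the case of mates counted singly was not covered. Scripts ran under Python 3.11.15 with scipy 1.17.1, pandas 2.3.3, numpy 2.4.6 and, for figures, matplotlib 3.10.9.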

Additional observations from a re-analysis of the deposited data

How the results depend on the processing

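No paired analysis was possible because each group has 1 library, and for the same reason no library could be left out. Of 160 values recomputed under other settings, 144 stayed within a set margin. The margin was the counting interval for a single gene and 1.5 times for counts of genes. For a median it was the median reach of its genes' intervals, which is not an interval of the median itself. Some values could not move under their setting, as centring leaves a difference from the median of all genes unchanged. The 144 is therefore no measure of how firm the results are. With equal RPKM sums in both libraries, the members' median turned to 0.91 and that of TOMM5 to 0.23, and 13 members were at least 2-fold higher (57.4% of all genes were) and 0 at least 2-fold lower (3.03% of all genes); the constant factor on every ratio gives this. The share of higher genes among all 2-fold calls was 57.9% on the deposited scale, 44.6% when centred, 29.5% when scaled to protein-coding reads and 94.985% with equal RPKM sums. With a mean of at least 5 RPKM, 22 members remained. Of these, 0 were at least 2-fold higher (12.7% of all genes under that filter) and 2 at least 2-fold lower (8.48%). The median of the motor group minus that of all genes was then 0.19. Without the members that share exon bases, that of the channel and small TOM subunits was -0.18. Scaling to protein-coding reads left 2 members with an interval wholly above 1 and 22 wholly below, and the shares of all genes were not computed. With a false discovery rate of at most 0.05, 3 members carried a peak, where 14.6% of all tested genes did. The members' median minus that of all genes was -0.47 as deposited and -0.23 with the same RPKM sum. Depth limits single members most: 10 of 33 had under 100 reads in both libraries together, and TIMM29 had 7 in the input.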

Other observations

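The table also lists 4 pseudogene copies of import genes. TIMM8BP2 and TOMM22P6 had 2 IP and 0 input reads each, TOMM40P1 0 and 2, and TOMM40P2 2 and 4. All are at or near the limit of 3 reads under which no ratio is given, so few reads of the members were assigned to these copies. The treatment of reads that match several places is not stated.

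TIMM9 and TOMM20L lie tail to tail on chromosome 14 and share 174 exon bases on opposite strands. TOMM20L had 0 IP and 3 input reads beside 32 and 34 for TIMM9. A similar overlap of 813 bases joins PMPCB with DNAJC2, which stood at 63.9 RPKM in the IP and 36.5 RPKM in the input, and an overlap of 363 bases joins TIMM17B with PQBP1, at 117 and 91.5 RPKM. How far reads of these abundant neighbours enter the values of PMPCB and TIMM17B was not tested.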
